A study of Mus musculus with 10 samples.

Results

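DNA replication genes make and regulate the machinery that copies the genome once in each cell cycle. The list holds 42 genes, matched to the arrays by symbol with older and newer synonyms accepted. It covers origin licensing, helicase activation, the sliding clamp and its loader, the polymerases and primase, single-strand binding, Okazaki fragment joining, nucleotide supply, entry into S phase, and histone supply behind the fork. Of the 42, 40 had a probe set of their own on the array and 39 were bright enough to be tested, among 7742 genes tested and 12393 genes with a probe set of their own. Gins2 and Chaf1a had no probe set that names 1 gene, and the probe sets of Tyms lay under the brightness limit. The 39 genes had 65 tested probe sets, a probe set being the group of short probes that reads 1 transcript, and each gene is described by its brightest one unless stated otherwise.

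Before S phase, the origin recognition complex with Cdc6 and Cdt1 loads the ring-shaped Mcm2 to Mcm7 helicase onto DNA. Cyclin E and its kinase, with Cdc45 and the GINS proteins, then turn the loaded rings into moving helicases, and polymerases, clamp and ligase copy both strands behind them. Most of these genes are transcribed in a wave around the start of S phase under E2F factors, so cultures of dividing cells such as embryonic fibroblasts express them at a level that moves with the share of cells in that phase.

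The cells were embryonic fibroblasts of the mouse, a connective tissue cell that divides readily in culture, and their messenger RNA was read on 10 Affymetrix arrays in 5 groups of 2. The cells lacked G9a (gene Ehmt2), an enzyme that methylates lysines of histone H3 and of other proteins. In 4 groups a vector had been introduced. It was empty in the group called delta, and carried G9a with a FLAG tag in the others: the wild-type form (WT), the K165A form, in which alanine replaces a lysine, or the H1093K form, a catalytic mutant by its label. The fifth pair is titled only deleted. What vector those cells carried, the age and strain of the embryos, and whether a group is 1 clone or a pool are not given in the sources used here. Nor is it given whether both arrays of a group stem from separate cultures, so the p-values cover the spread between these arrays alone, and that spread may be technical.

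The deposited values are signals on a linear scale, with a median of 181 to 199 on each array, and arrays of a group correlated with r of 0.984 to 0.989 across probe sets. Differences below are on the log2(signal + 16) scale, and a gene passed when limma gave a Benjamini-Hochberg adjusted p under 0.05 over all probe sets tested. With 2 arrays a group their number limits the precision, and an exact permutation test of 1 gene could not go below 0.333. The tested Ehmt2 probe set read 473 and 415 in delta, 676 and 620.4 in WT, 704 and 725 in K165A, and 461 and 494 in H1093K. It was higher than delta in WT and K165A (adjusted p = 0.00474 and 0.00128). In H1093K it overlapped delta (log2 difference 0.10, adjusted p = 0.737) and lay 1.35-fold below WT (0.0185), so this probe set does not show added G9a message in that group. In the arrays labelled deleted it read 1678 and 1749.7, the highest of all groups despite that label. The probe set also gave signal in delta, whose cells lacked G9a, so it does not tell whether the pair labelled deleted lacked G9a. Directions drawn from that pair are therefore described as those of the arrays labelled deleted, and not as effects of a loss of G9a. A second Ehmt2 probe set, under the brightness limit and not tested, read 7.13 and 36.5 in delta and 116 and 55.7 in H1093K. Here both H1093K arrays lay above both delta arrays. It read 40.9 and 106 in WT, 90.4 and 178 in K165A and 162 and 247 in the arrays labelled deleted. The 10 fibroblast markers summed to 43130 to 60082 over the 10 arrays, and 9 were tested. Single markers differed between groups: in WT against delta 4 passed as higher and 1 as lower (44.4% and 11.1%, beside 5.66% and 7.48% of all genes tested). Among them were Pdgfrb (2.07-fold higher), Col3a1 (1.86-fold higher) and Thy1 (1.87-fold lower). The counts were 3 and 1 in K165A and 0 in H1093K against delta. In deleted against delta they were 4 and 1, with Col3a1 3.41-fold higher. Of 8 epithelial markers, 4 keratins were tested and Cdh1 and Epcam were too dim. The summed epithelial signal was 3829 to 4139.5 in delta, 1139 to 1242 in WT, 1015 to 1167 in K165A, 2683 to 2917 in H1093K and 4539 to 4671 in the arrays labelled deleted. The 7 macrophage and leukocyte markers summed to 548 to 695 and the 5 endothelial markers to 192 to 313, and Tie1, an endothelial receptor, read 1.09 to 10.9. No marker was at 0.

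Since E2F factors drive many of these genes, the promoters were searched for 4 words of the E2F type, TTTCCCGC, TTTGGCGC, TTTCGCGC and TTTGCCGC, on either strand and with overlaps between words allowed. The windows ran from 250 bases before to 50 bases after each gene's start, from RefSeq on mouse build GRCm38.p6. Windows were held for 35 of the 42 genes, and 11 of the 35 (31.4%) had such a word, beside 335 of 6333 tested genes with a window (5.29%). The 11 were Orc1, Cdc6, Cdt1, Mcm3, Mcm5, Mcm6, Mcm7, Rfc3, Pola1, Pold1 and Lig1, so 7 of them belong to licensing. CCAAT, the word bound by NF-Y, was in 21 of the 35 (60%) and in 43.5% of tested genes, and TTTGAA, a word of the cell cycle homology region, in 3 (8.57%) and 13.8%. A match describes these letters and is neither a binding site nor a cause. Counted by window instead of gene, E2F-type words were in 28.2% of the 39 windows of the listed genes, in 4.34% of the 8199 windows of genes tested, and in 2.26% of all 32851 windows of the table.

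The stretches below show where the words lie in the 7 genes that have one before the start, whether or not the gene passed in a comparison. Each runs 5′ to 3′ on the gene's own strand with up to 25 bases on either side of the outermost word and ends at or before the base next to the start. Capitals mark the searched words, read on either strand. Orc1 is at chr4:108579402-108579453 on the plus strand, Cdc6 at chr11:98907988-98908045 on the plus strand, Mcm5 at chr8:75109331-75109392 on the plus strand, Mcm6 at chr1:128359720-128359840 on the minus strand, Mcm7 at chr5:138172016-138172073 on the minus strand, Rfc3 at chr5:151651209-151651243 on the minus strand and Pola1 at chrX:93632261-93632318 on the minus strand. In Mcm5 and Mcm6 a pair of words overlaps, and Mcm6 has a further word nearer its start.
Orc1: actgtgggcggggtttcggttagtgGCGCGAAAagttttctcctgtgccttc
Cdc6: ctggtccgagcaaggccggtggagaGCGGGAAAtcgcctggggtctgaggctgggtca
Mcm5: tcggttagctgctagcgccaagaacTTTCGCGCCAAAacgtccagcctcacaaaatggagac
Mcm6: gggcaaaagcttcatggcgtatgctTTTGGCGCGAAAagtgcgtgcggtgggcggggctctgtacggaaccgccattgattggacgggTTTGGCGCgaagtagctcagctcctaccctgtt
Mcm7: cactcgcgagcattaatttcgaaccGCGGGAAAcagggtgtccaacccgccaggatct
Rfc3: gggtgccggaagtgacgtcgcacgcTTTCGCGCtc
Pola1: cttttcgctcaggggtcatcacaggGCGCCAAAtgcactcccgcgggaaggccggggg

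On the arrays, the replication genes moved little: over the 5 group means, the highest was 1.23 times the lowest for the median gene, 1.06 times for the least variable and 1.77 times for the most variable. The group with the highest mean was WT for 11 genes, the arrays labelled deleted for 10, K165A for 9, H1093K for 6 and delta for 3. The lowest mean lay in the arrays labelled deleted for 17 genes, delta for 13, K165A for 4, H1093K for 3 and WT for 2. Set against the delta mean, the median of the 39 genes was higher by 0.13 and 0.14 (log2) on the WT arrays, 0.10 and 0.07 on the K165A arrays and 0.03 and 0.11 on the H1093K arrays. It was -0.04 and 0.0007 on the arrays labelled deleted, and -0.01 and 0.01 on the delta arrays themselves. Over all genes tested, the same medians lay between -0.02 and 0.01. In RNA from many cells, fewer cells in S phase and less RNA of these genes in each cell cannot be told apart.

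**Figure D1:**
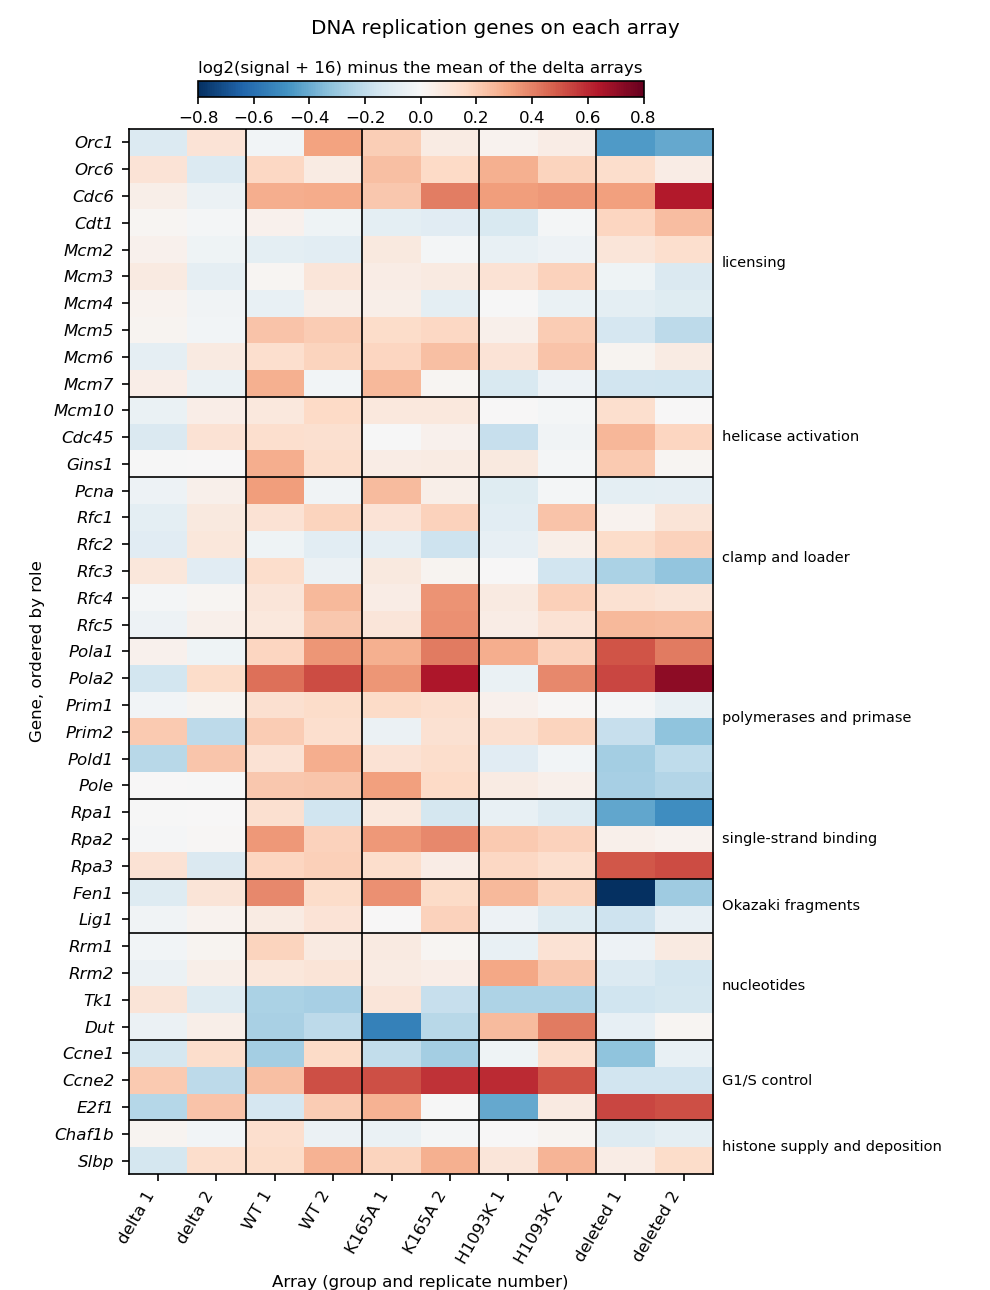
The 39 tested replication genes (vertical, by role) on each of the 10 arrays (horizontal), coloured by log2(signal + 16) minus the mean of the delta arrays, with values beyond 0.8 in the end colour. Most genes stay within a pale range. Values beyond 0.5 in size lie in Pola2, Ccne2 and Dut and, in the arrays labelled deleted, also in Fen1, Cdc6, E2f1, Rpa3 and Pola1.

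Adding back wild-type G9a left no replication gene past the threshold at its brightest probe set, while dimmer probe sets of Dut (lower, log2 difference -0.75, adjusted p = 0.00905) and Mcm7 (higher, 0.26, 0.0352) passed. By limma on the brightest, 0 of 39 passed in WT against delta, 0 higher beside 5.66% of all genes tested and 0 lower beside 7.48%. An unadjusted p under 0.05 was reached by 8 (20.5%), beside 27.9% of all genes. The values lay mostly above 0: 32 of 39 differences were positive, with a median of 0.14, against 47.1% positive and a median of -0.02 over all genes tested. The replicate number comes from the titles, and the labels do not say that it marks a shared batch. With that number as a block 6 genes passed: Rpa2 (adjusted p = 0.0361), Pola2 (0.00505), Mcm5 (0.0474) and Pole (0.0484) rose, and Tk1 (0.0439) and Dut (0.0432) fell. Those are 10.3% higher and 5.13% lower, beside 10% and 12.1% of all genes with the block. Without delta replicate 1, Ccne2 alone passed (log2 difference 0.59, adjusted p = 0.0241). When the probe sets of each gene were averaged, Dut fell by 0.49 (0.00291) and Mcm6 (0.0372) and Rpa2 (0.0393) rose. The summed epithelial signal was lower in WT than in delta, with log2 differences of -2.89 in Krt7 and -1.65 in Krt18, and its part in these values was not tested.

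K165A G9a gave the most calls among the added forms. Against delta 3 of 39 genes rose, Rpa2, Ccne2 and Pola1, beside 5.15% of all genes, and 1 fell, Dut, beside 7.49%. In shares that is 7.69% and 2.56% of the list, so the rises are near the background and the falls below it. The median difference was 0.13 with 31 of 39 above 0, against -0.01 and 47.3% over all genes. With the replicate block, 9 passed: Pole (0.0349), Pola2 (0.00400), Rfc5 (0.0464), Orc6 (0.0474) and Slbp (0.0461) were added, all higher. The 8 rises (20.5%) lie above the 9.21% of all genes with the block and the 1 fall (2.56%) below the 11.8%. The count was 0 without delta replicate 2 or K165A replicate 1, 1 without delta replicate 1 or K165A replicate 2, 2 without H1093K replicate 1 or either deleted array, and 0 when only the arrays compared were fitted. It was 2, Rpa2 and Ccne2, when both arrays labelled deleted were left out of the fit. When the probe sets of each gene were averaged, Mcm6 (log2 difference 0.24, adjusted p = 0.0315) and Pole (0.24, 0.0468) passed too.

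The group given the catalytic mutant had no call: in H1093K against delta limma passed 0 of 39, 0 higher beside 0.504% of all genes and 0 lower beside 0.465%. An unadjusted p under 0.05 was reached by 8 (20.5%), beside 12.3% of all genes. The genes of smallest p were Ccne2 (log2 difference 0.55), Rrm2 (0.26) and Dut (0.33), with adjusted p of 0.115, 0.153 and 0.234. With the block, Ccne2 (0.0430) and Dut (0.0337) rose, 5.13% of the list beside 1.73% of all genes with the block, and 0 fell, beside 1.82%. At the tested probe set, the Ehmt2 signal of this group overlapped that of delta. Since WT, K165A and H1093K were all set against the same delta arrays, their differences from delta share those values. The median was 0.05 with 25 of 39 above 0, beside -0.01 and 47.8% over all genes tested.

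**Figure D2:**
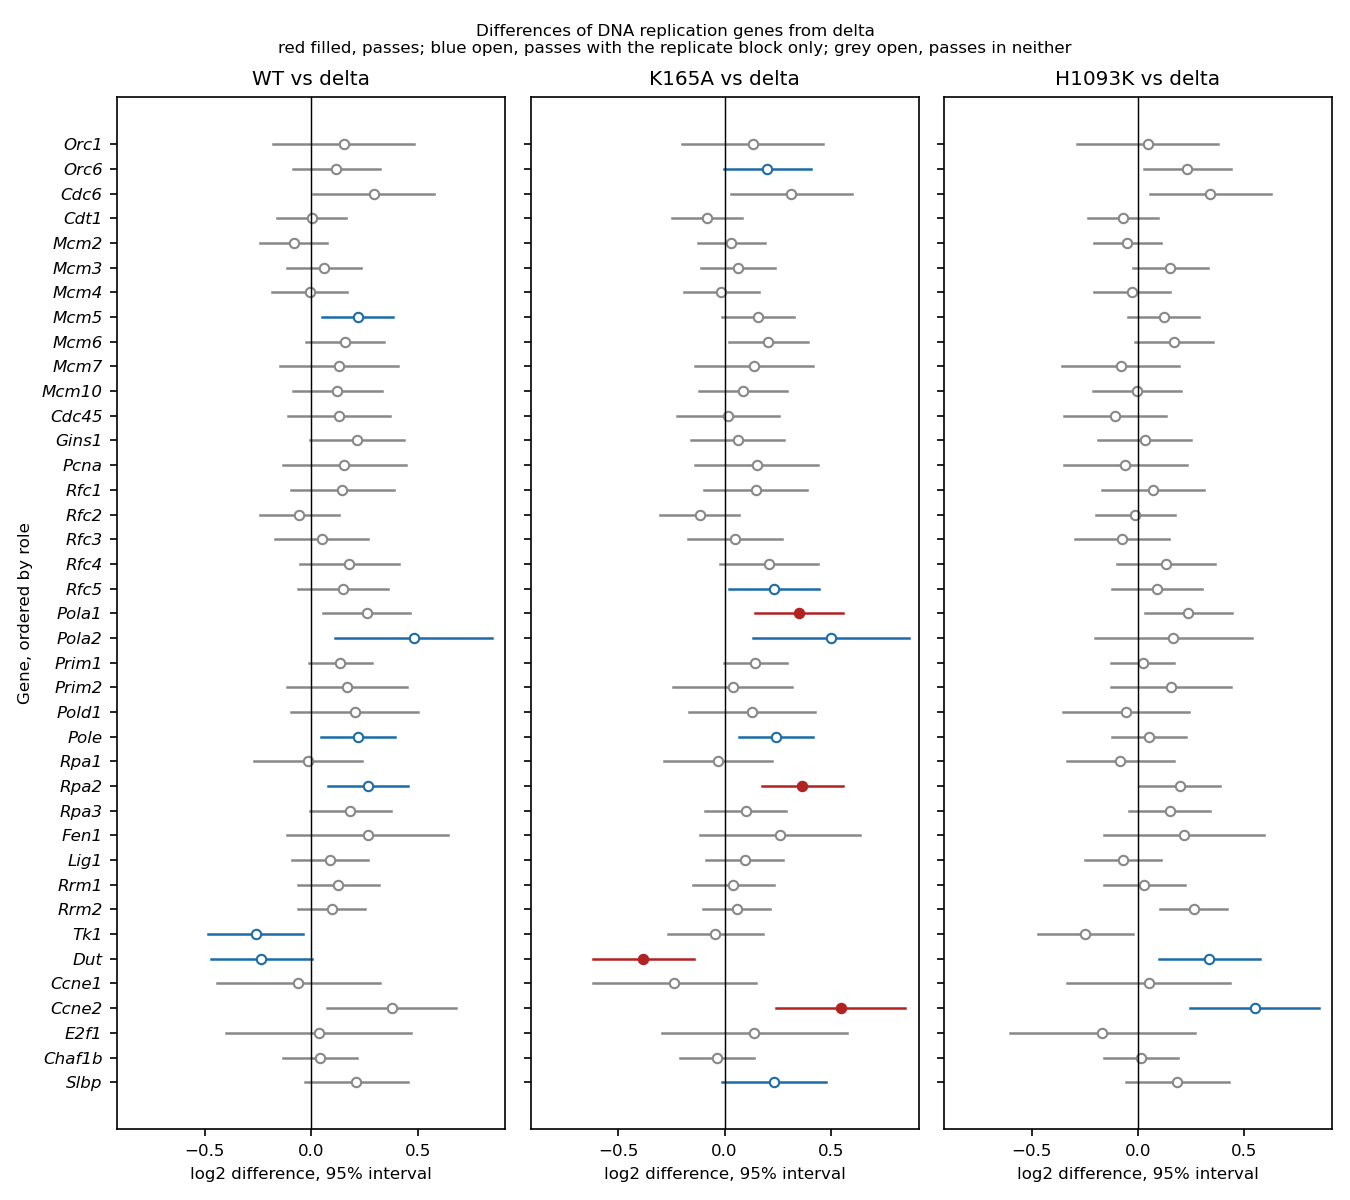
Log2 differences of the 39 replication genes (vertical, by role) with their 95% intervals (horizontal axis, log2(signal + 16)), 1 panel each for WT, K165A and H1093K against delta. Few points are filled, and Dut lies left of 0 with WT or K165A G9a and right of 0 with H1093K.

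K165A and wild-type G9a were not separated by any replication gene. Limma passed 0 of 39 in K165A against WT, with 0% of all genes higher and 0% lower, and 0 of 39 at an unadjusted p under 0.05, beside 2.76% of all genes. No probe set of the 13576 tested passed with or without the block, while 429 had an unadjusted p under 0.05, and 864 with the block. The largest difference was that of Tk1, thymidine kinase of the salvage pathway, at 0.22 (95% interval -0.01 to 0.44, adjusted p = 1). Mcm2 differed by 0.11 (-0.04 to 0.27) and Gins1 by -0.15 (-0.37 to 0.07). The intervals were 0.44 wide at the median, so small differences were not detectable with 2 arrays a group.

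Without the block, H1093K differed from wild-type G9a in 1 of the 39 genes, Dut. In H1093K against WT 1 gene rose, beside 4.56% of all genes tested, and 0 fell, beside 4.31%. Most values pointed down, with 28 of 39 below 0 and a median of -0.06, against 0.01 over all genes. With the block Pola2 fell as well (adjusted p = 0.0484, log2 difference -0.32), so that 2.56% of the list was higher and 2.56% lower, beside 7.85% and 7.57% of all genes.

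Taking WT and K165A together against delta and H1093K, 4 arrays against 4, 3 genes rose, Pole, Rpa2 and Pola2, beside 8.74% of all genes tested, and Dut fell, beside 11.1%. These shares of 7.69% and 2.56% of the list are below the background. The median was 0.12 with 30 of 39 above 0, beside -0.01 and 47.6% over all genes. The count was 1 without WT replicate 1 or H1093K replicate 1 and 2 without delta replicate 1, K165A replicate 2 or H1093K replicate 2. It was 2 with a variance estimate that does not follow the signal. Pola1 passed with the block (adjusted p = 0.0415), which made 10.3% of the list higher and 2.56% lower, beside 13% and 16.1% of all genes.

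In the arrays labelled deleted, replication genes moved in both directions. Against delta 4 of 39 rose, Rpa3, Pola1, Cdc6 and Pola2, beside 16.7% of all genes tested, and 3 fell, Rpa1, Fen1 and Pole, beside 18.9%. That is 10.3% and 7.69% of the list, below the background on both sides. With the block 12 passed, with Cdt1 (0.0319), Rfc5 (0.0146) and E2f1 (0.0208) added among the rises and Orc1 (0.0271) and Rfc3 (0.00645) among the falls. These were 17.9% higher and 12.8% lower, beside 21.8% and 24.2% of all genes with the block. When the probe sets of each gene were averaged, 13 passed. The count was 3 without deleted replicate 2. The median was -0.03 with 19 of 39 above 0, beside -0.01 and 48.4% over all genes. Of the 4 keratins tested, Krt7 was 23.2-fold lower and Krt8 11.3-fold and Krt18 3.57-fold higher in these arrays than in delta, and their part in the values was not tested.

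Against WT, the same arrays had 10 of 39 genes lower, beside 17.5% of all genes tested, and 1 higher, Rpa3, beside 17.2%. These are 25.6% and 2.56% of the list. The genes that fell were Pole, Mcm5, Fen1, Ccne2, Orc1, Rpa1, Rfc3, Prim2, Pold1 and Rrm2. The median was -0.11 with 27 of 39 below 0, while over all genes tested it was 0.004 with 50.5% above 0. With the block 19 passed, 6 higher and 13 lower, or 15.4% and 33.3% of the list beside 22.5% and 22.8% of all genes. It added Cdt1 (0.0330), Mcm2 (0.0369), Rfc2 (0.0324), Dut (0.0392) and E2f1 (0.0288) among the rises and Prim1 (0.0447), Rpa2 (0.0354) and Lig1 (0.0346) among the falls. The count was 5 without WT replicate 1, 7 without WT replicate 2, 4 without deleted replicate 1 and 3 without deleted replicate 2. Both comparisons use the arrays labelled deleted, and deleted against WT shares the WT arrays with WT against delta. All 4 keratins tested also separated these arrays from WT, Krt8 (3.44 in log2), Krt18 (3.49) and Krt19 (0.45) higher and Krt7 (-1.64) lower, and their part was not tested.

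**Figure D3:**
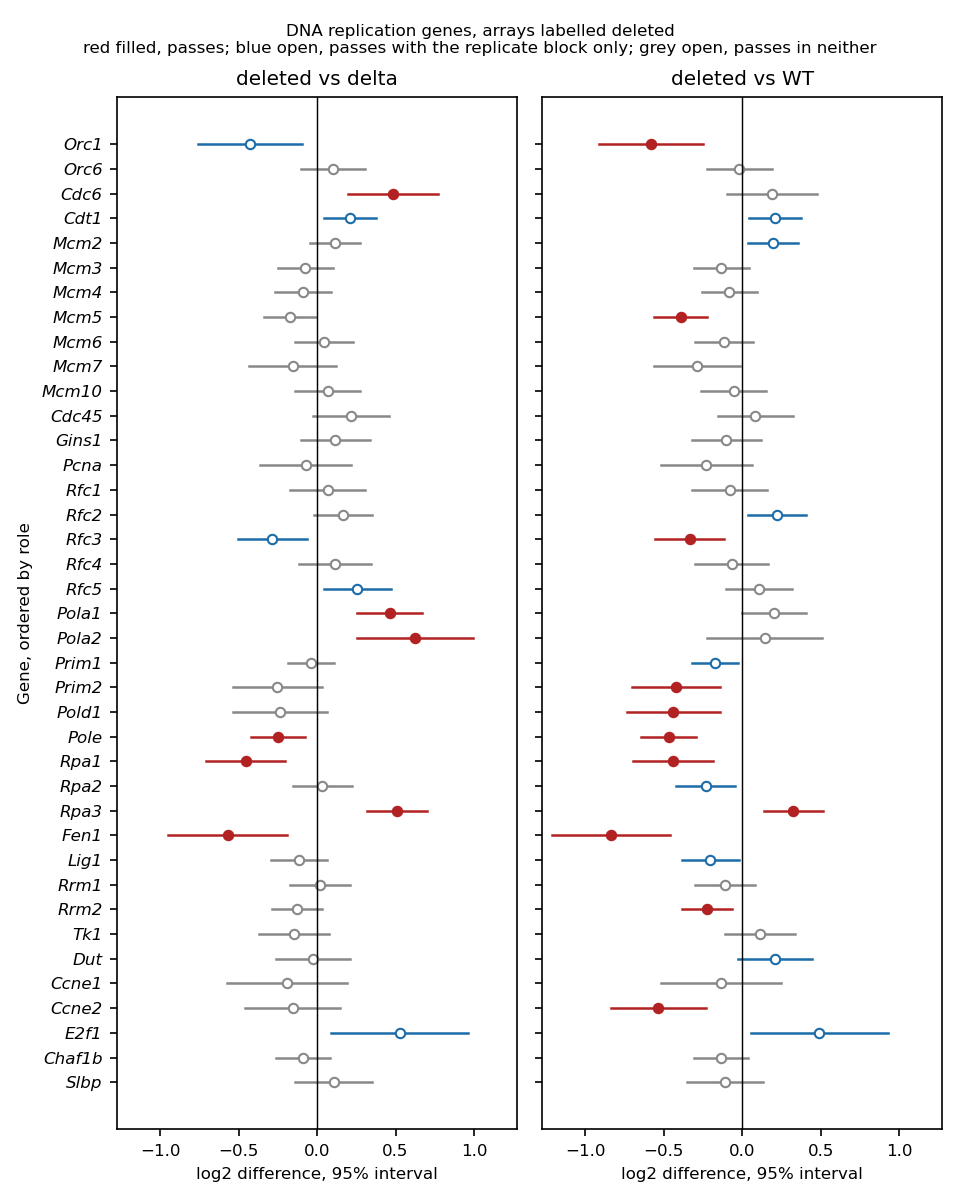
Log2 differences of the 39 replication genes (vertical, by role) between the arrays labelled deleted and delta (left panel) or WT (right panel), with 95% intervals on the log2(signal + 16) scale. Filled points lie on both sides of 0 against delta, and against WT 10 of the 11 filled points lie left of 0.

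Licensing genes, 10 in all, lay mostly above 0 against delta, 8 of them in WT, 8 in K165A and 6 in H1093K. None passed in WT, K165A or H1093K against delta, with medians of 0.12, 0.13 and 0.08, and the calls came from the arrays labelled deleted. Orc1, the largest subunit of the origin recognition complex, read 225 and 265 in delta, 241 and 309.8 in WT, 282 and 256 in K165A, 249.8 and 255 in H1093K and 175 and 180.4 in the arrays labelled deleted. The pair labelled deleted lay below all 8 other arrays. Against WT this was 1.49-fold lower (log2 difference -0.58, 95% interval -0.91 to -0.25, adjusted p = 0.0142), and the call was lost without WT replicate 2 (0.108), deleted replicate 1 (0.0695) or deleted replicate 2 (0.0531). Against delta it missed the threshold (log2 difference -0.43, 95% interval -0.76 to -0.10, adjusted p = 0.0502).

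Cdc6, which helps to load the helicase, read 290.1 and 271 in delta, 347 and 348 in WT, 329 and 378 in K165A, 358 and 361 in H1093K and 357 and 445 in the arrays labelled deleted. All other arrays lay above the delta pair. Only the arrays labelled deleted passed against delta, 1.4-fold higher (log2 difference 0.48, 95% interval 0.20 to 0.77, adjusted p = 0.0156), and not without delta replicate 2 (0.0813) or deleted replicate 2 (0.131). The helicase subunit Mcm5 read 1676 and 1625 in delta, 1939 and 1905 in WT, 1832 and 1852 in K165A, 1701 and 1899 in H1093K and 1501 and 1423 in the arrays labelled deleted. In WT it lay above delta without overlap and in the arrays labelled deleted below it. Deleted against WT was 1.31-fold lower (log2 difference -0.39, 95% interval -0.56 to -0.22, adjusted p = 0.0031), and this call was kept without any 1 array and under every other setting tried.

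Mcm2, another ring subunit, read 3088 and 2947 in delta, 2853 and 2843 in WT, 3182 and 2986 in K165A, 2894 and 2936 in H1093K and 3222 and 3306 in the arrays labelled deleted. Its groups differed by at most 0.20, in deleted against WT (adjusted p = 0.0597, and 0.0369 with the block), and it passed in no comparison without the block. Of the other licensing genes, Orc6, Cdt1, Mcm3, Mcm4, Mcm6 and Mcm7 did not pass in any comparison at their brightest probe sets without the block. With it, Orc6 passed in K165A against delta (0.0474). Dimmer probe sets passed for Mcm7 in WT against delta, and for Cdt1 (0.26, 0.0446) and for Mcm7 (3 probe sets, -0.29 to -0.22) in deleted against WT. Their differences from delta ranged from -0.01 to 0.16 in WT, from -0.08 to 0.21 in K165A, from -0.08 to 0.23 in H1093K and from -0.16 to 0.21 in the arrays labelled deleted. Cdt1, the loading factor that geminin holds in check, had the highest signals on both arrays labelled deleted, 3264 and 3448, and 2924 and 2872 in delta. At this probe set it did not pass there without the block, and with it passed against delta (0.0319) and against WT (0.0330).

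Helicase activation is represented by Mcm10, Cdc45 and Gins1, and none passed in any comparison. Cdc45, a partner of the Mcm ring in the moving helicase, read 419 and 493 in delta, 500.2 and 499 in WT, 453 and 465 in K165A, 397 and 446 in H1093K and 549 and 513 in the arrays labelled deleted. The lowest array was an H1093K one and the highest were both arrays labelled deleted. H1093K against WT gave -0.24 (95% interval -0.48 to 0.001, adjusted p = 0.242). Mcm10, a scaffold of the young fork, and Gins1, a subunit of GINS, differed from delta by 0.12 to 0.21 in WT, 0.06 to 0.09 in K165A, -0.0039 to 0.03 in H1093K and 0.07 to 0.11 in the arrays labelled deleted.

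Clamp and clamp loader genes numbered 6, and without the block 1 of them passed once. Pcna, the sliding clamp that tethers polymerases, read 7968 and 8402 in delta, 10333 and 8039 in WT, 9747 and 8469 in K165A, 7639 and 8077 in H1093K and 7764 and 7795 in the arrays labelled deleted. The first WT and first K165A arrays stood above all others and the second arrays of both groups lay within the delta range or just above it. Against delta it differed by 0.16 in WT, 0.15 in K165A and -0.06 in H1093K, none of which passed (adjusted p = 0.502, 0.523 and 0.918).

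Rfc3, a subunit of the clamp loader, read 906 and 798 in delta, 939 and 824 in WT, 897 and 863 in K165A, 853 and 763 in H1093K and 711 and 679 in the arrays labelled deleted. The pair labelled deleted was the lowest. Deleted against WT was 1.26-fold lower (log2 difference -0.33, 95% interval -0.55 to -0.11, adjusted p = 0.0276), lost without WT replicate 1 (0.182), deleted replicate 1 (0.0732) or deleted replicate 2 (0.126). Its second probe set read 810.3 and 818 in WT and 517 and 557 in the arrays labelled deleted, and passed against both WT (-0.59, adjusted p = 9.58e-04) and delta (-0.46, 0.00361). Of the other loader subunits in deleted against WT, Rfc1, Rfc2, Rfc4 and Rfc5 gave -0.08, 0.22, -0.07 and 0.11, none of which passed without the block. With it Rfc2 passed (0.0324). Rfc2 has 1 probe set, and it also passed in the fit where every gene was the mean of its probe sets (0.0445). Whether these subunits differ from Rfc3 was not tested.

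Polymerase and primase genes held 6 members, and all 6 differences were positive in WT and in K165A against delta, with medians of 0.21 and 0.19. Pola1, the catalytic subunit of the polymerase that starts each strand, read 718 and 681 in delta, 788 and 896 in WT, 855 and 938 in K165A, 858 and 798 in H1093K and 999.8 and 940.1 in the arrays labelled deleted. Both delta arrays lay below the other 8. K165A rose 1.27-fold against delta (log2 difference 0.35, 95% interval 0.14 to 0.55, adjusted p = 0.0372). This call was lost without either delta array (0.0844 and 0.169), either K165A array (0.0631 and 0.180), H1093K replicate 1 (0.05), or either or both deleted arrays (0.0543 to 0.0551). It was also lost with no brightness limit (0.0521), with the 4 arrays alone (0.104) or without the variance trend (0.0641). The arrays labelled deleted lay 1.38-fold above delta (log2 difference 0.46, 95% interval 0.26 to 0.67, adjusted p = 0.00363), and that call was kept throughout. WT and H1093K gave 0.26 and 0.24 (adjusted p = 0.103 and 0.337).

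Pola2, the accessory subunit of the same polymerase, read 375 and 463 in delta, 571 and 607 in WT, 537 and 662 in K165A, 402 and 549 in H1093K and 609.9 and 696 in the arrays labelled deleted. The first H1093K array lay inside the delta range and the second above it. Deleted against delta was 1.54-fold higher (log2 difference 0.62, 95% interval 0.26 to 0.99, adjusted p = 0.0156), lost without delta replicate 1 (0.100) or deleted replicate 2 (0.0981). WT and K165A together overlapped delta and H1093K together. Pooled, WT and K165A lay 1.33-fold above delta and H1093K (log2 difference 0.41, 95% interval 0.15 to 0.67, adjusted p = 0.0361). That call was lost without either WT array (0.0797 and 0.101), delta replicate 1 (0.109), K165A replicate 2 (0.113) or H1093K replicate 1 (0.115), with no brightness limit (0.0578) and without the variance trend (0.0553). The replicate 2 array was the higher one in every group, and with the block WT (0.00505) and K165A (0.00400) passed against delta too.

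Pole, the catalytic subunit of the leading-strand polymerase, read 864 and 859.7 in delta, 1005 and 1007 in WT, 1084 and 962 in K165A, 902 and 888 in H1093K and 713 and 732 in the arrays labelled deleted. Delta and H1093K overlapped nowhere with WT and K165A, which lay above them, and the arrays labelled deleted lay below all. Pooled, WT and K165A lay 1.15-fold above delta and H1093K (log2 difference 0.20, 95% interval 0.08 to 0.33, adjusted p = 0.0285). That call was lost without either delta array (0.0659 and 0.0705), either WT array (0.0770 and 0.0732), K165A replicate 1 (0.0905), either H1093K array (0.0708 and 0.0802) or the variance trend (0.0538). Deleted against WT was 1.38-fold lower (log2 difference -0.47, 95% interval -0.64 to -0.30, adjusted p = 0.00134) and was kept throughout. Deleted against delta was 1.19-fold lower (log2 difference -0.25, 95% interval -0.42 to -0.08, adjusted p = 0.0331), lost without either delta array (0.106 and 0.102), either deleted array (0.140 and 0.0928), with the 4 arrays alone (0.0700) or without the variance trend (0.0569).

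Prim2, the large primase subunit, read 1116 and 834 in delta, 1111 and 1063 in WT, 933 and 1051 in K165A, 1058 and 1096 in H1093K and 848 and 768 in the arrays labelled deleted, and fell 1.34-fold in deleted against WT (log2 difference -0.42, 95% interval -0.70 to -0.14, adjusted p = 0.0285), lost without any 1 of those 4 arrays (0.0550 to 0.147). Its second probe set gave -0.09 there (adjusted p = 0.635) and did not pass. Pold1, the catalytic subunit of the lagging-strand polymerase, read 618 and 849.8 in delta, 785 and 892 in WT, 786 and 802 in K165A, 680.3 and 714 in H1093K and 597 and 629 in the arrays labelled deleted. It fell 1.36-fold in deleted against WT (log2 difference -0.44, 95% interval -0.74 to -0.14, adjusted p = 0.0299), lost without any 1 of those arrays (0.0526 to 0.167). The delta pair of Pold1 was wide, from below the WT range to inside it. Prim1, the small primase subunit, did not pass in any comparison, at 0.14 in K165A against delta (adjusted p = 0.215) and -0.17 in deleted against WT (0.0713, and 0.0447 with the block).

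**Figure D4:**
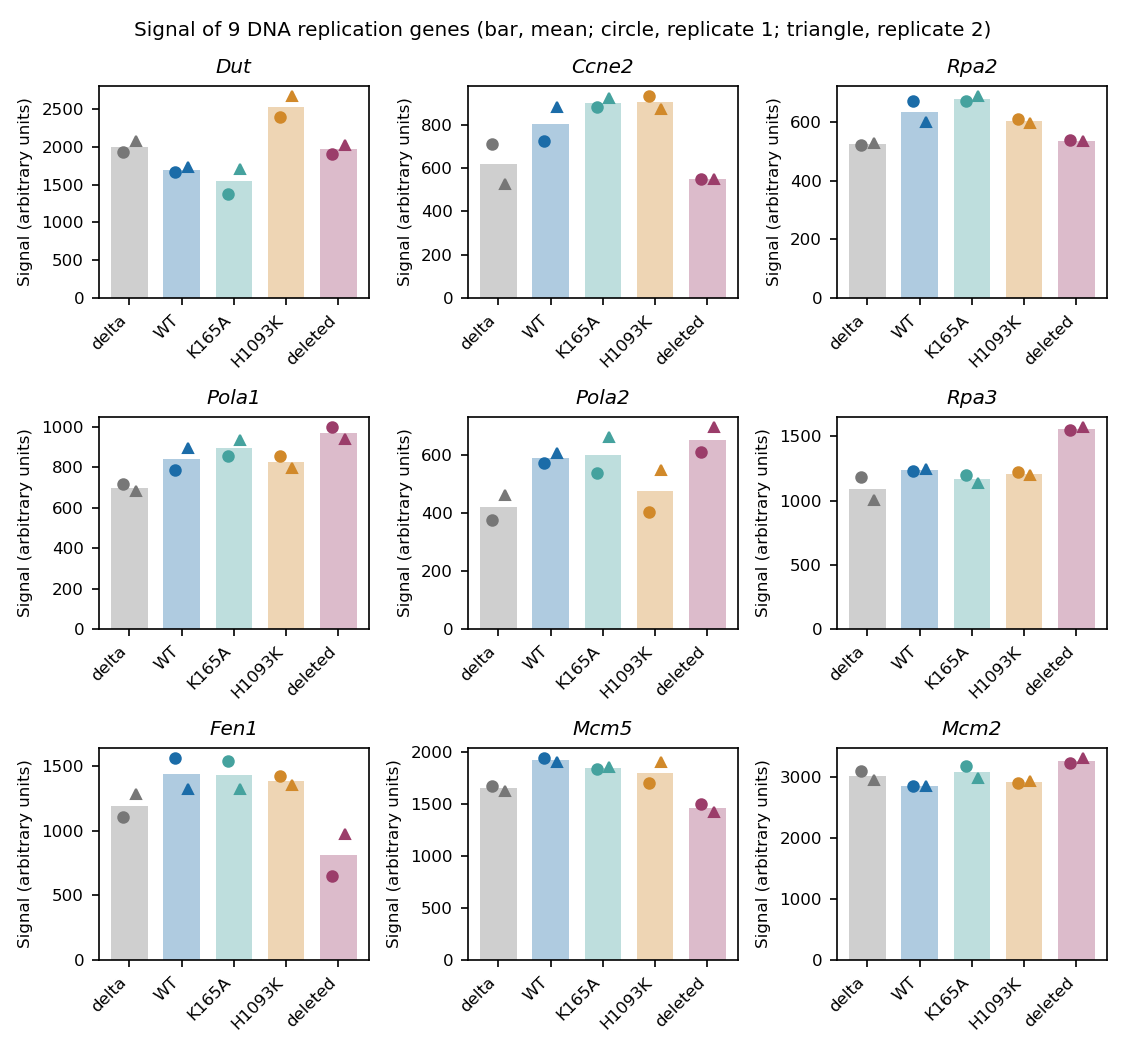
Deposited signal (vertical, linear scale from 0) on each array for the members that the results turn on, in the 5 groups (horizontal), with points for arrays and a bar at the group mean. Dut is lower with WT or K165A G9a than with the empty vector or H1093K, and the pair labelled deleted is apart in Rpa3 and Fen1.

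Replication protein A, the trimer that coats single-stranded DNA, had Rpa1 lower and Rpa3 higher in the arrays labelled deleted and Rpa2 higher with K165A G9a. Rpa2 read 521 and 528 in delta, 670.5 and 599 in WT, 671 and 689 in K165A, 609 and 597 in H1093K and 539 and 535 in the arrays labelled deleted. Every WT, K165A and H1093K array lay above both delta arrays. K165A rose 1.29-fold (log2 difference 0.36, 95% interval 0.18 to 0.55, adjusted p = 0.0225), lost without either delta array (0.0921 and 0.0885), either K165A array (0.0742 and 0.101) or with the 4 arrays alone (0.0948). WT and H1093K gave 0.27 and 0.20 (adjusted p = 0.0738 and 0.403, and 0.0361 in WT with the block). Deleted against WT gave -0.23 and passed only with the block (0.0354) or the mean of its probe sets (0.0420). Of the WT and K165A arrays, 1 of WT lay inside the H1093K range. Pooled, WT and K165A lay 1.16-fold above delta and H1093K (log2 difference 0.22, 95% interval 0.08 to 0.35, adjusted p = 0.0316). This call was lost without either delta array (0.0784 and 0.0691), WT replicate 1 (0.113), either K165A array (0.0620 and 0.0816) or either H1093K array (0.0756 and 0.0888).

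Rpa1, the large subunit, read 5621 and 5624 in delta, 6151 and 5029 in WT, 5952 and 5090.0 in K165A, 5385 and 5236 in H1093K and 4217 and 3979.6 in the arrays labelled deleted. The pair labelled deleted lay below all other arrays. It was 1.37-fold lower than delta (log2 difference -0.46, 95% interval -0.71 to -0.20, adjusted p = 0.0117) and 1.36-fold lower than WT (log2 difference -0.44, 95% interval -0.69 to -0.19, adjusted p = 0.0144). Against delta the call was lost without delta replicate 1 (0.0514), delta replicate 2 (0.0542) or deleted replicate 2 (0.0789), and against WT without WT replicate 1 (0.0929) or deleted replicate 2 (0.0916). A second probe set passed in the same direction against both (adjusted p = 0.00491 and 0.00176).

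Rpa3, the small subunit, read 1183 and 1003 in delta, 1231 and 1248 in WT, 1202 and 1136 in K165A, 1224 and 1195 in H1093K and 1546 and 1572 in the arrays labelled deleted. Here the pair labelled deleted lay above all other arrays, opposite to Rpa1. It was 1.42-fold higher than delta (log2 difference 0.51, 95% interval 0.32 to 0.70, adjusted p = 0.00134), kept throughout, and 1.25-fold higher than WT (log2 difference 0.33, 95% interval 0.14 to 0.52, adjusted p = 0.0155), lost without any 1 of those 4 arrays (0.0591 to 0.0770). Among WT, K165A and H1093K against delta it gave 0.18, 0.10 and 0.15, none of which passed.

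Of the Okazaki fragment genes, Fen1, the nuclease that trims flaps, showed the widest group range of all 39. It read 1106 and 1279.9 in delta, 1559 and 1317 in WT, 1540.2 and 1324 in K165A, 1425 and 1348 in H1093K and 651 and 973 in the arrays labelled deleted. Both arrays labelled deleted lay below all others. Deleted against WT was 1.78-fold lower (log2 difference -0.83, 95% interval -1.21 to -0.46, adjusted p = 0.00427) and was kept throughout. Against delta it was 1.48-fold lower (log2 difference -0.57, 95% interval -0.95 to -0.19, adjusted p = 0.0268), lost without delta replicate 2 (0.137), deleted replicate 1 (0.186) or with the 4 arrays alone (0.0704). The second Fen1 probe set gave a smaller difference, -0.39 against WT (adjusted p = 0.00649) and -0.15 against delta (0.217), the latter not passing.

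Lig1, the ligase that seals the fragments, read 1771 and 1837 in delta, 1889.6 and 1944 in WT, 1809 and 2051 in K165A, 1751 and 1681 in H1093K and 1606 and 1724 in the arrays labelled deleted. Its groups stood close together and none of its comparisons passed. The largest difference was -0.20 in deleted against WT (adjusted p = 0.0820, and 0.0346 with the block).

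Nucleotide supply held Dut, the only gene of the 39 called lower in any comparison among the other 4 groups without the block. Dut, the dUTPase that keeps uracil out of DNA, read 1936 and 2072 in delta, 1669 and 1729 in WT, 1373 and 1713 in K165A, 2394 and 2673 in H1093K and 1909.7 and 2026 in the arrays labelled deleted. All WT and K165A arrays lay below both delta arrays, both H1093K arrays lay above them, and the pair labelled deleted overlapped the delta range. Deleted against WT gave 0.21 (adjusted p = 0.163, and 0.0392 with the block). K165A fell 1.30-fold against delta (log2 difference -0.38, 95% interval -0.62 to -0.14, adjusted p = 0.047), while H1093K was 1.48-fold higher than WT (log2 difference 0.57, 95% interval 0.33 to 0.81, adjusted p = 0.00891). Pooled, WT and K165A lay 1.39-fold below delta and H1093K (log2 difference -0.48, 95% interval -0.64 to -0.31, adjusted p = 0.00179). This was the only pooled call that was kept without any 1 array and under every other setting.

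The K165A call of Dut was weak: it was lost without either delta array (0.0944 and 0.203), either WT array (0.0691 and 0.0690), K165A replicate 1 (0.248), either H1093K array (0.0556 each), either or both deleted arrays (0.0670), with no brightness limit (0.0746), with the 4 arrays alone (0.130) or without the variance trend (0.0850). H1093K against WT was lost without WT replicate 1 (0.0719) or H1093K replicate 2 (0.0753). A second Dut probe set read 291 and 283 in delta, 185 and 145 in WT, 212 and 220.5 in K165A, 344 and 294 in H1093K and 255 and 236 in the arrays labelled deleted. Here too WT and K165A lay below delta and H1093K above it, and the pair labelled deleted lay between delta and K165A. In WT it fell 1.68-fold against delta (log2 difference -0.75, 95% interval -1.07 to -0.43, adjusted p = 0.00905). It was 1.86-fold higher in H1093K than in WT (0.89, 0.57 to 1.22, adjusted p = 0.00395). Pooled, WT and K165A lay 1.56-fold below delta and H1093K (-0.64, -0.87 to -0.41, adjusted p = 0.00202). Between K165A and WT, the brighter probe set gave -0.15 and the other 0.37, and neither passed. In deleted against WT the other one rose by 0.54 (adjusted p = 0.0180).

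Rrm2, the small subunit of ribonucleotide reductase, read 2353 and 2509 in delta, 2589 and 2606 in WT, 2539 and 2516 in K165A, 3014 and 2822 in H1093K and 2249 and 2196 in the arrays labelled deleted. The H1093K arrays were the highest pair and the arrays labelled deleted the lowest. It passed in deleted against WT, 1.17-fold lower (log2 difference -0.22, 95% interval -0.38 to -0.07, adjusted p = 0.0361), lost without any 1 of those 4 arrays (0.101 to 0.159), with the 4 arrays alone (0.0746), without the variance trend (0.0700) or with the mean of its 3 probe sets (0.0636). H1093K against delta was 0.26 (adjusted p = 0.153). Rrm1, the large subunit, gave 0.13, 0.04 and 0.03 against delta in WT, K165A and H1093K, and did not pass in any comparison. Tk1 read 1708 and 1483 in delta, 1331 and 1319.6 in WT, 1701 and 1401 in K165A, 1338 and 1337 in H1093K and 1425 and 1442 in the arrays labelled deleted, with WT and H1093K below both delta arrays. Neither difference passed, at -0.26 in WT (adjusted p = 0.131, and 0.0439 with the block) and -0.25 in H1093K (0.354).

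Among the G1/S genes, Ccne2, a cyclin E that activates Cdk2, read 709.9 and 528 in delta, 726 and 883 in WT, 881 and 922 in K165A, 933 and 874 in H1093K and 549 and 548 in the arrays labelled deleted. The delta pair was wide, and all WT, K165A and H1093K arrays lay above it, 1 of them only by a small margin. K165A rose 1.46-fold (log2 difference 0.55, 95% interval 0.24 to 0.85, adjusted p = 0.0299), lost without delta replicate 2 (0.168), either K165A array (0.0907 and 0.128), with the 4 arrays alone (0.0828) or without the variance trend (0.0521). H1093K differed from delta by the same size, 0.55, and did not pass (adjusted p = 0.115), and WT by 0.38 (0.109). Deleted against WT was 1.45-fold lower (log2 difference -0.53, 95% interval -0.84 to -0.23, adjusted p = 0.0139), lost without WT replicate 2 (0.108) or either deleted array (0.0596 and 0.0592).

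Ccne1, the other cyclin E, read 282 and 347 in delta, 256 and 349.6 in WT, 271 and 256 in K165A, 305 and 344 in H1093K and 247 and 299 in the arrays labelled deleted. Each group's range overlapped that of at least 1 other group and nothing passed. E2f1, the transcription factor that acts upstream of most of these genes, read 555 and 769 in delta, 593 and 756 in WT, 798 and 652 in K165A, 489 and 688 in H1093K and 956 and 941 in the arrays labelled deleted. The arrays labelled deleted were the highest, at 0.53 above delta (adjusted p = 0.0636, and 0.0208 with the block) and 0.49 above WT (0.0810 and 0.0288). Its second probe set read 199 and 204 in delta, 266 and 212 in WT, 164 and 264 in K165A, 256 and 288 in H1093K and 274 and 272 in the arrays labelled deleted.

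Histone supply was read by Chaf1b, a subunit of the chromatin assembly factor, and Slbp, which binds the stem-loop of histone messages. Chaf1b read 1085 and 1048 in delta, 991 and 1010.2 in the arrays labelled deleted, 1170.4 and 1032 in WT, 1029 and 1053 in K165A and 1069.8 and 1085 in H1093K. Its differences were 0.04, -0.03, 0.01 and -0.09 against delta in WT, K165A, H1093K and the arrays labelled deleted. Slbp differed by 0.21, 0.23, 0.19 and 0.10, and passed only in K165A with the block (0.0461).

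In all, 16 of the 39 genes (41%) passed in at least 1 of the 8 comparisons, beside 50.3% of all genes tested, and 23 in none. Leaving aside the comparisons with the arrays labelled deleted, 6 passed (15.4%, beside 22.3% of all genes): Pola1, Pola2, Pole, Rpa2, Dut and Ccne2. Of 27 calls, 6 were kept without any 1 array and under every other setting: Dut in the pooled groups, Rpa3 and Pola1 in deleted against delta, and Pole, Mcm5 and Fen1 in deleted against WT. Of 19 genes with several tested probe sets, all probe sets had 1 sign in 13 genes for WT against delta, 13 for K165A, 11 for H1093K, 16 for the pooled groups, 17 for deleted against delta and 17 for deleted against WT. For K165A against WT this was 6 of 19 and for H1093K against WT 13.

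Genes with and without an E2F-type word in the promoter had much the same medians where G9a was added back. In WT against delta the 11 with a word had a median of 0.15 and the 22 without one 0.13, in K165A 0.13 and 0.12, and in H1093K 0.04 and 0.06. In deleted against WT the medians were -0.20 and -0.07. There 4 of the 11 genes with a word and 4 of the 22 without one passed, beside 17.2% higher and 17.5% lower of all genes tested. The 2 sets were not tested against each other. Of the promoters printed above, those of Orc1, Mcm5 and Rfc3 belong to genes that fell in deleted against WT, and those of Cdc6 and Pola1 to genes that rose in deleted against delta. These medians are descriptions, and 6 tested genes had no window.

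Other genes of replication, 38 tested of 49 listed, were called without the block at shares at or below those of all genes, save among the rises in H1093K against delta. In WT against delta 1 rose, Pole2, the second subunit of polymerase epsilon (log2 difference 0.32, adjusted p = 0.0255), 0 fell and 37 did not pass, with a median of 0.06. That is 2.63% higher and 0% lower, beside 5.66% and 7.48% of all genes. In K165A 1 fell, Pole4, a histone-fold subunit of the same enzyme (-0.37, adjusted p = 0.0220), 2.63% beside 7.49%, and 37 did not pass. In H1093K against delta Pole2 rose (0.43, adjusted p = 0.0402), 2.63% beside 0.504%. In the pooled groups Wdhd1, which links helicase and polymerase alpha, rose by 0.27 and Dnmt1, the maintenance DNA methyltransferase, by 0.20, while Pole4 fell by 0.25, or 5.26% and 2.63% beside 8.74% and 11.1%. Neither K165A nor H1093K against WT gave a call without the block. In deleted against delta 6 rose and 2 fell: the helicase Recql4 (0.78), Gmnn, the geminin that restrains Cdt1 (0.40), the fork protection protein Tipin (0.34) and Pole4 (0.38) were among the rises, and Dna2, a nuclease-helicase (-0.43), and Asf1a, a histone chaperone (-0.41), fell. The shares are 15.8% and 5.26%, beside 16.7% and 18.9% of all genes. Against WT 5 rose and 5 fell, with Pole4 at 0.63 and Recql4 at 0.88, and with Dna2 at -0.53 and Dck, a deoxynucleoside kinase, at -0.56, which is 13.2% each way beside 17.2% and 17.5%. With the block 3 rose and 1 fell in WT (7.89% and 2.63%, beside 10% and 12.1% of all genes with the block). In K165A these were 4 and 1 (10.5% and 2.63%, beside 9.21% and 11.8%). The pooled groups gave 4 and 2 (10.5% and 5.26%, beside 13% and 16.1%). Deleted against delta gave 8 and 5 (21.1% and 13.2%, beside 21.8% and 24.2%), and 1 fell in H1093K against WT (2.63%, beside 7.57%).

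The E2F and G1/S regulators, 26 tested of 32, act upstream of replication. Cdkn1a, the inhibitor p21, fell 2.63-fold in WT and 2.66-fold in K165A against delta (adjusted p = 5.62e-04 and 4.96e-04). Ccnd2, a D-type cyclin, fell 1.86-fold and 1.92-fold in the same groups and 1.54-fold in H1093K (adjusted p = 1.86e-04, 1.40e-04 and 0.0187). Cdkn1c, the inhibitor p57, rose 1.87-fold in WT and 1.55-fold in K165A (0.00143 and 0.0112), and was 2.59-fold lower in H1093K than in WT (1.14e-04). In counts, 1 rose and 3 fell in WT (3.85% and 11.5%, beside 5.66% and 7.48% of all genes), 2 rose and 2 fell in K165A (7.69% each, beside 5.15% and 7.49%), and 1 fell in H1093K against delta (3.85%, beside 0.465%). With the block 3 rose and 3 fell in WT (11.5% each, beside 10% and 12.1% of all genes with the block). In K165A 7 rose and 2 fell with it (26.9% and 7.69%, beside 9.21% and 11.8%). In H1093K 2 fell with the block (7.69%, beside 1.82%). In H1093K against WT 1 rose and 2 fell (3.85% and 7.69%, beside 4.56% and 4.31%). Under the block these were 2 and 3 (7.69% and 11.5%, beside 7.85% and 7.57%). In K165A against WT none passed. In deleted against delta 6 rose and 3 fell, led by Ccnd2, 4.05-fold higher (adjusted p = 2.33e-07), and Ccnd1, 2.97-fold higher (8.04e-05), and these counts are 23.1% and 11.5% beside 16.7% and 18.9% of all genes. The block made them 8 and 5 (30.8% and 19.2%, beside 21.8% and 24.2%). The medians were 0.14, 0.22 and 0.05 against delta in WT, K165A and H1093K.

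Mitosis genes, 39 tested of 42, act after replication in the same cycle. In WT against delta 6 rose (15.4%, beside 5.66% of all genes) and 0 fell (beside 7.48%), among the rises the kinesin Kif11 (0.44, adjusted p = 0.00550), the cyclins Ccnb2 (0.28, 0.0257) and Ccna2 (0.30, 0.0284) and the condensin subunit Smc4 (0.31, 0.0253). In K165A 4 rose (10.3%, beside 5.15%), in H1093K 1, Ccnb2 (0.44, adjusted p = 0.0227, 2.56% beside 0.504%), and none fell. With the block 8 rose and 1 fell in WT (20.5% and 2.56%, beside 10% and 12.1% of all genes with the block). In K165A 6 rose with it (15.4%, beside 9.21%) and in H1093K 3 (7.69%, beside 1.73%), and 0 fell in either. Their median was 0.13 in WT, 0.13 in K165A and 0.20 in H1093K, so the replication genes, at 0.14, 0.13 and 0.05, had a like median with wild-type or K165A G9a, and the difference with H1093K was not tested. In deleted against delta 9 rose and 4 fell (23.1% and 10.3%, beside 16.7% and 18.9%), with Ccnb2 at 0.76 and Top2a, a topoisomerase, at 0.60. The block made these counts 13 and 5 (33.3% and 12.8%, beside 21.8% and 24.2%).

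**Figure D5:**
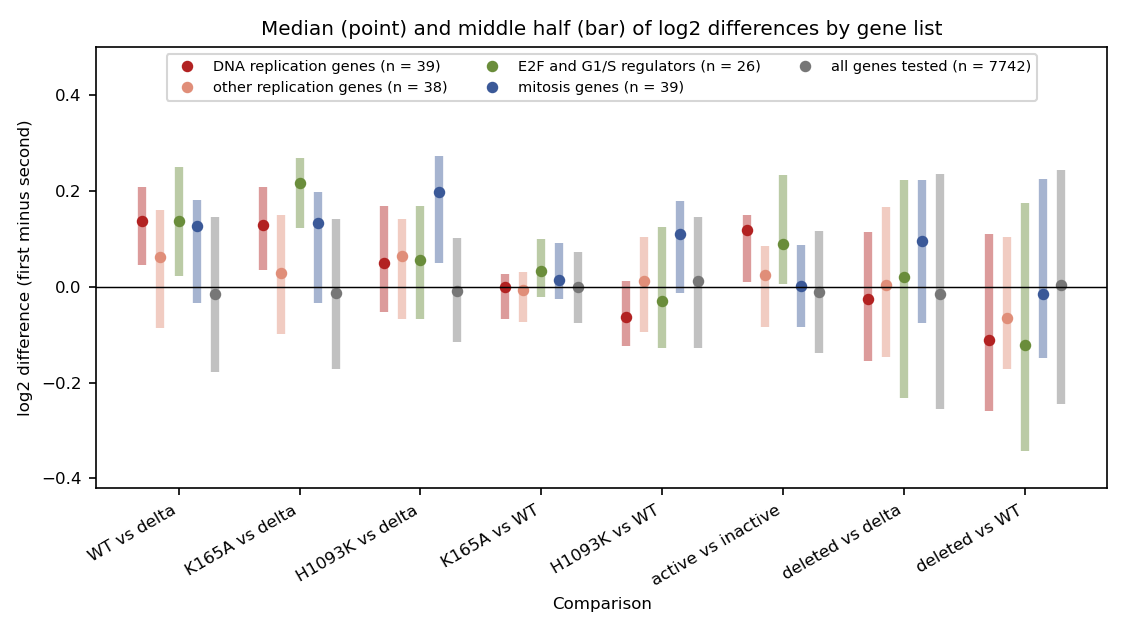
Median log2 difference (point) and the range of the middle 50% of genes (bar) on the log2(signal + 16) scale (vertical) for the replication genes, 3 other cell cycle lists and all genes tested, by comparison (horizontal). The median of the replication genes lies above 0 in WT, K165A and H1093K against delta and in the pooled comparison. It lies below 0 in H1093K and deleted against WT and, by a small margin, in deleted against delta. Their bars overlap those of all genes in every comparison. Active vs inactive on the axis is WT and K165A against delta and H1093K, and the labels do not state the activity of K165A.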

How the data were processed

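The authors deposited signal intensities on a linear scale, made with GCOS 1.4 per the submitters' processing notes; its background and scaling options are not given in the sources used here. With the top and bottom 2% of probe sets trimmed, every array had a mean of about 500.1, so no scaling was added. Genes were named by the platform annotation: of 22626 probe sets other than controls, 20380 name 1 gene, 691 several and 1555 none. Probe sets whose mean log2(signal + 16) was at or above the 40th percentile (13576) were fitted with limma 3.58.1 in R 4.3.3 (lmFit, then eBayes with an intensity trend), with 1 mean for each of the 5 groups. P-values were adjusted by Benjamini-Hochberg over all 13576. The shares of all genes called count 1 probe set a gene, its brightest. The fit was tested on simulated data.

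Groups and replicate numbers came from the sample titles. The differences between replicate 1 and replicate 2 correlated between every pair of groups (r of 0.23 to 0.53 over 10 pairs of groups), so same-numbered arrays deviate together. Over the 39 replication genes these correlations were -0.01 to 0.57. The fit without the block was kept as the main one. The blocked value is given where it changes a call of the listed replication genes, and for the other lists in some comparisons. The genes described in full are those that pass in a comparison, the 3 of smallest p where none does, and 1 gene of each role. The gene lists, the members and the rule were chosen with earlier results of these data known. Alternatives were the pseudocount (4 or 64), the filter (none, or the 60th percentile), quantile normalization, median centring, only the arrays compared, leaving out the arrays labelled deleted, the replicate block, no trend, a gene as the mean of its probe sets, and leaving out each array. A filter on the mean linear signal was added after seeing the data.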

Additional observations from a re-analysis of the deposited data

How the results depend on the processing

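For the genes named, 773 values were recomputed. Those of genes called in the main fit did not change sign, and sign changes were not counted for the others. Several settings, such as the block or leaving out arrays of other groups, leave the log2 difference unchanged. No sign change could arise under those. In 662 the side of the threshold was kept, and for genes not called the difference also moved by less than the spread between arrays of a group. Of 27 calls, 6 were kept under every alternative. The replicate block took the number of replication genes that passed in WT against delta from 0 to 6, K165A against delta from 4 to 9, H1093K against delta from 0 to 2, H1093K against WT from 1 to 2, deleted against delta from 7 to 12 and deleted against WT from 11 to 19. With a gene as the mean of its probe sets, WT against delta gave 3 and deleted against delta 13. For K165A against delta the count was 2 with no filter, 0 with only the arrays compared, 2 without the deleted arrays and 1 without the trend, and the pooled groups gave 2 without the trend. Leaving out 1 array gave 0 to 1 for WT against delta, 0 to 3 for K165A against delta, 0 to 1 for H1093K against WT, 1 to 4 for the pooled groups, 3 to 8 for deleted against delta and 3 to 11 for deleted against WT. Over all probe sets, H1093K against delta passed 111, and between 0 and 472 under the other settings. It passed 472 with the block, where WT against delta went from 1616 to 2813, K165A against delta from 1529 to 2678, H1093K against WT from 1090 to 1946 and the pooled groups from 2478 to 3746. K165A against delta passed 805 with only the arrays compared. The filter on the mean linear signal, chosen after seeing the data, kept every count of replication genes within 1.5 times. Quantile normalization and median centring moved the median of all genes by at most 0.03. The cause of these shifts was not tested beyond the construction of each setting.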
